A study of Mus musculus with 12 samples.

Results

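The CXC chemokines are described here in cartilage explants from the femoral heads of mice, through every array probe whose symbol was that of 1 of 10 genes (Cxcl1, Cxcl2, Cxcl5, Cxcl9, Cxcl10, Cxcl11, Cxcl12, Cxcl13, Cxcl14 and Cxcl16). The array carried 46632 probes for 34509 symbols, and 14 of those probes belonged to 9 of the 10 genes. Cxcl5 had no probe under that symbol and was not analysed here. Of the 14 probes, 8 probes of 6 genes (Cxcl1, Cxcl2, Cxcl9, Cxcl12, Cxcl14 and Cxcl16) passed the detection filter, which asked for a detection p under 0.05 on at least 4 of the 12 arrays and kept 18200 probes of the whole array. A detection p compares a probe with the background beads of its own array.

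The explants were hips of 21-day-old TS-4/5Δcat mice, which lack the catalytic domains of ADAMTS-4 and ADAMTS-5, the principal enzymes that cut aggrecan in cartilage. The deletion was carried by all arrays, the untreated ones included, so no wildtype cartilage was compared. Hips were cultured 4 to a well and then left untreated, given IL-1α at 10 ng/ml or given retinoic acid (RA) at 10 µM for 3 days. IL-1α is a cytokine that drives inflammatory gene expression in cartilage, and RA is a vitamin A derivative that lowers matrix synthesis by chondrocytes. Each treatment had 4 arrays, 2 in batch 1 and 2 in batch 2. Batch 1 came from the Donut line and batch 2 from the Gertrude line, so that line and batch cannot be told apart.

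Chemokines are small secreted proteins that steer the movement of cells through G protein-coupled receptors. In the CXC class the first cysteines of the mature protein are parted by a single residue. Cxcl1, Cxcl2 and Cxcl5 draw neutrophils through Cxcr2, Cxcl9, Cxcl10 and Cxcl11 are interferon-inducible and draw T cells and NK cells through Cxcr3, Cxcl13 draws B cells through Cxcr5, and Cxcl12 retains blood progenitors in marrow through Cxcr4. Cxcl16 is made as a membrane-bound ligand of Cxcr6, and Cxcl14 is a chemokine of epithelia and connective tissue whose receptor is not settled. In articular cartilage IL-1 is known to induce Cxcr2 ligands in chondrocytes.

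Of the 10 genes, 7 lie on mouse chromosome 5 in the RefSeq annotation of GRCm38.p6. Cxcl5 (chr5:90759298-90761625), Cxcl1 (chr5:90891245-90893121) and Cxcl2 (chr5:90903899-90905938) are near neighbours, as are Cxcl9 (chr5:92321331-92328079), Cxcl10 (chr5:92346638-92348889) and Cxcl11 (chr5:92359544-92363296). Cxcl13 lies at chr5:95956939-95961068. Cxcl12 (chr6:117168535-117181368), Cxcl16 (chr11:70454389-70459984) and Cxcl14 (chr13:56288643-56296811) lie apart from these clusters. RefSeq promoter sequences were matched for 7 of the 10 genes (not for Cxcl5, Cxcl11 and Cxcl16). The 250 bases before the start of Cxcl1 and Cxcl2 are shown because both genes rose with IL-1α in both batches, and those of Cxcl10 because it holds the same kind of motif and was detected on no array. Cxcl14 also rose with IL-1α in both batches, and its promoter is not shown. Capitals mark matches to the kappaB consensus, the site bound by NF-κB, and in Cxcl10 also the interferon response element (GAAA, any 2 bases, GAAA).
Cxcl1, chr5:90890995-90891244, plus strand: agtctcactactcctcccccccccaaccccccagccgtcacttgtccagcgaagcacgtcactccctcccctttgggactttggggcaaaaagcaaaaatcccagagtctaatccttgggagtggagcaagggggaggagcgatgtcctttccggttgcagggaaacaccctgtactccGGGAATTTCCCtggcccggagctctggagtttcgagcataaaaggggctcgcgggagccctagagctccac
Cxcl2, chr5:90903649-90903898, plus strand: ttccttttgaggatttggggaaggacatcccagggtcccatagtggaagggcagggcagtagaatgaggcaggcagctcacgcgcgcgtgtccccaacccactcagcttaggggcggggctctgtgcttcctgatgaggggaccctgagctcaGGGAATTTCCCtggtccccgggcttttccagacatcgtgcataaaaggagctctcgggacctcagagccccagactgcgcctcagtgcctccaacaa
Cxcl10, chr5:92348890-92349139, minus strand: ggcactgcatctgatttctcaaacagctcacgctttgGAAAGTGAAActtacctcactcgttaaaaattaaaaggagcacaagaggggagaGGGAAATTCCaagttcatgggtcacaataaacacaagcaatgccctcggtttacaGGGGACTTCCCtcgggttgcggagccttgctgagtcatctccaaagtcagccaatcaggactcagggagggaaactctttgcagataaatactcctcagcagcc

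The Cxcl1 and Cxcl2 promoters both held the site GGGAATTTCC, at -71 to -62 in Cxcl1 and at -97 to -88 in Cxcl2 counted from the start, inside a run of 14 bases that was the longest the pair shared (gggaatttccctgg). A second match to the consensus overlaps each of them by all but 1 base. Over all 32851 promoters in the table, searched on both strands over the same 250 bases, this exact site was found in 28 (0.0852%) and the kappaB consensus in 2382 (7.25%). Cxcl10 had matches from -159 to -150 and, overlapping each other, from -104 to -94, and the interferon element from -213 to -204. The interferon element was found in 978 promoters (2.98%), and in 1 other of the matched genes, Cxcl14, from -172 to -163. Cxcl14 had no match to the kappaB consensus in this window. A direct repeat (GGTCA, any 5 bases, GGTCA) was found in 21 promoters (0.0639%) and in none of the 7. RA response elements in their full form were not searched for, so this count says nothing about them. Cxcl9, Cxcl12 and Cxcl13 had no match to any of these motifs in this window. A match describes letters only and is not evidence of binding.

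All levels below are log2 of the background-corrected, quantile-normalized intensity, and a difference of 1 is a doubling. The lowest detected probe of an array stood between 4.86 and 5.48, and the brightest at 14.24 on every array. Arrays of batch 1 detected 13786 to 14965 probes and those of batch 2 16732 to 19485. Over all kept probes, arrays of the same treatment correlated at 0.98 to 0.99 within a batch and at 0.87 to 0.90 between batches. The treatment checks followed the labels: Nos2, the inducible nitric oxide synthase, was detected on the 4 IL-1α arrays only, at least 14.1-fold above untreated, and Cyp26a1, which breaks down RA, on the 4 RA arrays only, at least 19.2-fold above untreated. A bound sets the bright group against the lowest detected signal of the dim arrays.

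**Figure D1:**
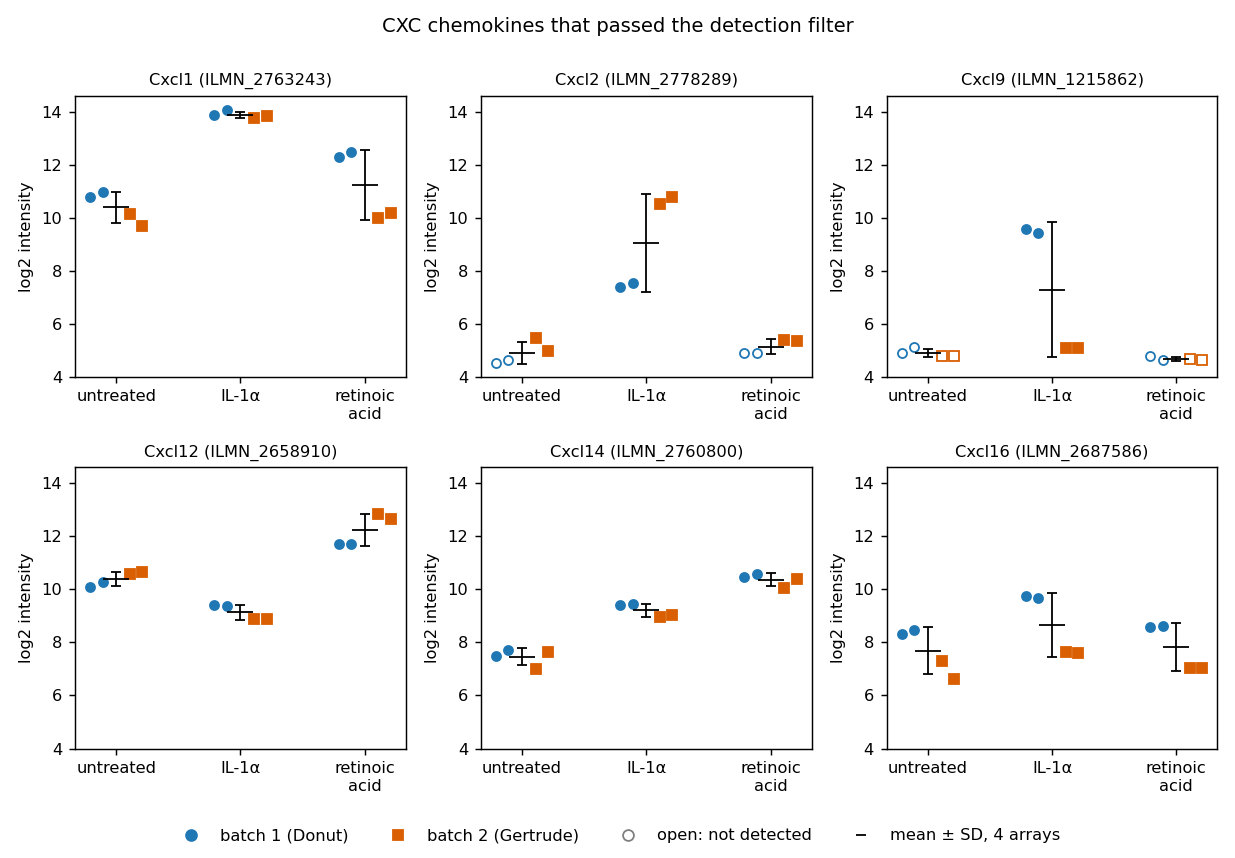
Log2 intensity of the 6 CXC chemokine genes with a kept probe (the brightest kept probe of each), by treatment, for every array. Circles are batch 1, squares batch 2, open symbols arrays on which the probe was not detected, and bars the mean ± SD of 4 arrays. The IL-1α arrays stand highest for Cxcl1 and Cxcl2, the RA arrays for Cxcl12 and Cxcl14, and Cxcl9 is bright on the 2 IL-1α arrays of batch 1 alone.

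IL-1α raised both neutrophil-attracting ligands that had a kept probe. The Cxcl1 probe (ILMN_2763243) read 10.77 and 10.98 on the untreated arrays of batch 1 and 10.14 and 9.70 on those of batch 2. IL-1α brought it to 13.86 and 14.04 (batch 1) and to 13.75 and 13.81 (batch 2). Every IL-1α array was thus above every untreated array, and all 4 were close to the brightest value on the array, so the size of the rise may be understated. The difference was 3.47 (SE 0.32, 11.1-fold; adjusted p = 6.60e-06, limma), and 4 against 4 arrays that do not overlap give an exact permutation p = 0.0286, the smallest these arrays allow. The permutations here and below exchange arrays across batches. Exchange within batches only has 36 arrangements and could not go below 0.0556. It was 3.07 in batch 1 and 3.86 in batch 2, and the gap of 0.79 between batches missed the threshold (adjusted p = 0.0738, limma). That gap passed when untreated batch 2 replicate 1 was left out (1.01, adjusted p = 0.0259, limma). In bulk tissue, fewer cells of a type and less RNA per cell cannot be told apart, which holds for every difference given here.

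Cxcl2, a neutrophil attractant close to Cxcl1 in sequence and place, rose from a much dimmer start. In untreated explants its probe (ILMN_2778289) was not detected in batch 1 (4.52 and 4.64) and was detected in batch 2 (5.47 and 4.96). With IL-1α the batch 1 arrays read 7.37 and 7.54, and the batch 2 arrays 10.50 and 10.79. The IL-1α and untreated ranges did not overlap, and the batch 2 pair was far above the batch 1 pair. Over both batches the difference was 4.15 (SE 0.44; adjusted p = 2.29e-05, limma; exact permutation p = 0.0286). The rise was at least 4.50-fold in batch 1 and 43.1-fold in batch 2. The batches differed by 2.55 on the log2 scale (SE 0.24; adjusted p = 3.85e-05, limma), a size that is not exact because the untreated arrays of batch 1 were below detection.

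RA left these ligands lower than IL-1α did. Cxcl1 read 12.29 and 12.47 on the RA arrays of batch 1 and 9.98 and 10.19 on those of batch 2. The batch 1 pair was above all untreated arrays, and the batch 2 pair lay among them. The difference from untreated was 0.84 (SE 0.32, 95% interval 0.14 to 1.54) and missed the threshold (adjusted p = 0.0608, limma). That call depends on the fit, since it passed without the replicate number as a block (adjusted p = 0.0371), with scaling to one median (0.0160) and with normalization within batches (0.0325). Within batch 1 it was 1.50 and within batch 2 0.17, and this gap of -1.33 between batches passed (SE 0.24; adjusted p = 0.00634, limma). The difference over both batches passed when RA batch 2 replicate 1 (1.20) or replicate 2 (1.07) was left out, and also when any 1 of the IL-1α arrays was left out, with adjusted p from 0.00884 to 0.0481 by limma. In batch 1 the summed level of 8 neutrophil marker probes was 5437 to 5438 with RA and 12884 to 15240 untreated. In batch 2 it was 13604 to 14495 with RA and 9428 to 11261 untreated. This sum gives most weight to S100a8, the brightest of the 8 probes (mean level 12.66). The part of neutrophils in the Cxcl1 values was not tested.

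On RA arrays Cxcl2 was not detected in batch 1 (4.90 and 4.90) and stood at 5.39 and 5.36 in batch 2. These values overlapped the untreated ones, and the difference was 0.24 (95% interval -0.72 to 1.20; adjusted p = 0.719, limma). Set against IL-1α directly, RA arrays were lower for Cxcl1 (difference -2.63, SE 0.32; adjusted p = 3.56e-05, limma) and for Cxcl2 (difference -3.91, SE 0.44; adjusted p = 1.75e-05, limma). No RA array reached the lowest IL-1α array for either gene.

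The interferon-inducible, Cxcr3-binding ligands behaved unlike the neutrophil attractants, since only Cxcl9 was detected and only with IL-1α. Its brighter probe (ILMN_1215862) was below detection on all 8 untreated and RA arrays, at 4.91, 5.11, 4.78 and 4.80 untreated and at 4.79, 4.63, 4.68 and 4.62 with RA. IL-1α arrays gave 9.56 and 9.43 in batch 1, whereas the batch 2 pair gave 5.08 and 5.09. The probe passed the filter only through these 4 IL-1α arrays, so a difference from the other treatments was built into its selection. The IL-1α and untreated ranges overlapped (exact permutation p = 0.0857), because the batch 2 pair was barely above background. IL-1α arrays were at least 4.50-fold above untreated over both batches, at least 18.5-fold in batch 1 and at least 1.09-fold in batch 2 (overall adjusted p = 0.0210, limma).

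The fitted gap between the batches in the Cxcl9 response to IL-1α was -4.19 (adjusted p = 3.80e-08, limma), and it lay between -4.31 and -3.37 under the 14 other settings that kept the probe. Its size is not exact, because the untreated arrays of both batches were below detection. The pooled call was less steady: without untreated batch 1 replicate 1 the adjusted p was 0.0886, and without untreated batch 1 replicate 2 it was 0.0853 (limma). Against RA, IL-1α arrays were at least 4.29-fold higher over both batches and at least 17.7-fold in batch 1 (adjusted p = 0.0117, limma). A second Cxcl9 probe (ILMN_1242483), which did not pass the filter, gave the same division. It read 7.40 and 7.13 on the IL-1α arrays of batch 1 and was detected on none of the other 10. In batch 1 it was at least 3.95-fold higher with IL-1α than untreated.

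Cells that could carry this response were not separated by the assay. T cell markers Cd3e, Cd3g, Cd3d, Cd8a and Cd4 were detected on 0 of the 12 arrays, while Cd79b was detected on all 12 and Nkg7 on 6. The summed level of the 8 lymphocyte marker probes was 373 to 382 on the IL-1α arrays of batch 1 and 115 to 116 on those of batch 2, against 243 to 266 and 108 to 120 untreated. The RA arrays, on which Cxcl9 was not detected, summed to 312 to 331 and 216 to 224. The lymphocyte sum gives most weight to Cd79b, the brightest of the 8 probes (mean level 7.12). Cd79b averaged 7.86 in batch 1 and 6.01 in batch 2 with IL-1α, and 8.10 and 7.50 with RA. Nkg7 was detected on 4 IL-1α arrays (means 6.99 in batch 1 and 5.39 in batch 2) and 0 RA arrays. Untreated, Nkg7 was detected on the 2 arrays of batch 1 only (mean 6.67). For 9 macrophage marker probes the sums in batch 1 and batch 2 were 6807 to 6883 and 3810 to 4330 with IL-1α, 6625 to 6799 and 4161 to 4957 with RA, and 3230 to 3765 and 2108 to 2364 untreated. This sum gives most weight to Cd68, the brightest of the 9 probes (mean level 11.23). With IL-1α, Cd68 (0.97) and Cd14 (2.73) rose and 4 kept macrophage genes fell, among them C1qc (-2.08). Over all kept probes 15.2% were up and 14.1% down. The part of these cells in the Cxcl9 values was not tested.

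Cxcl10 (ILMN_1214419) and Cxcl11 (ILMN_1247446) were detected on 0 of the 12 arrays, with raw intensities of 26.8 to 51.5 and 26.9 to 52.4 beside array medians of 34.3 to 63.3. A probe under the older symbol Scyb11 (ILMN_1218930) was also detected on none. Cxcl13, the B cell attractant (ILMN_2760020), was detected on 3 arrays only and was not tested. It read 5.44 and 5.39 on the RA arrays of batch 2 and 4.90 on untreated batch 2 replicate 2, all close to the detection limit.

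**Figure D2:**
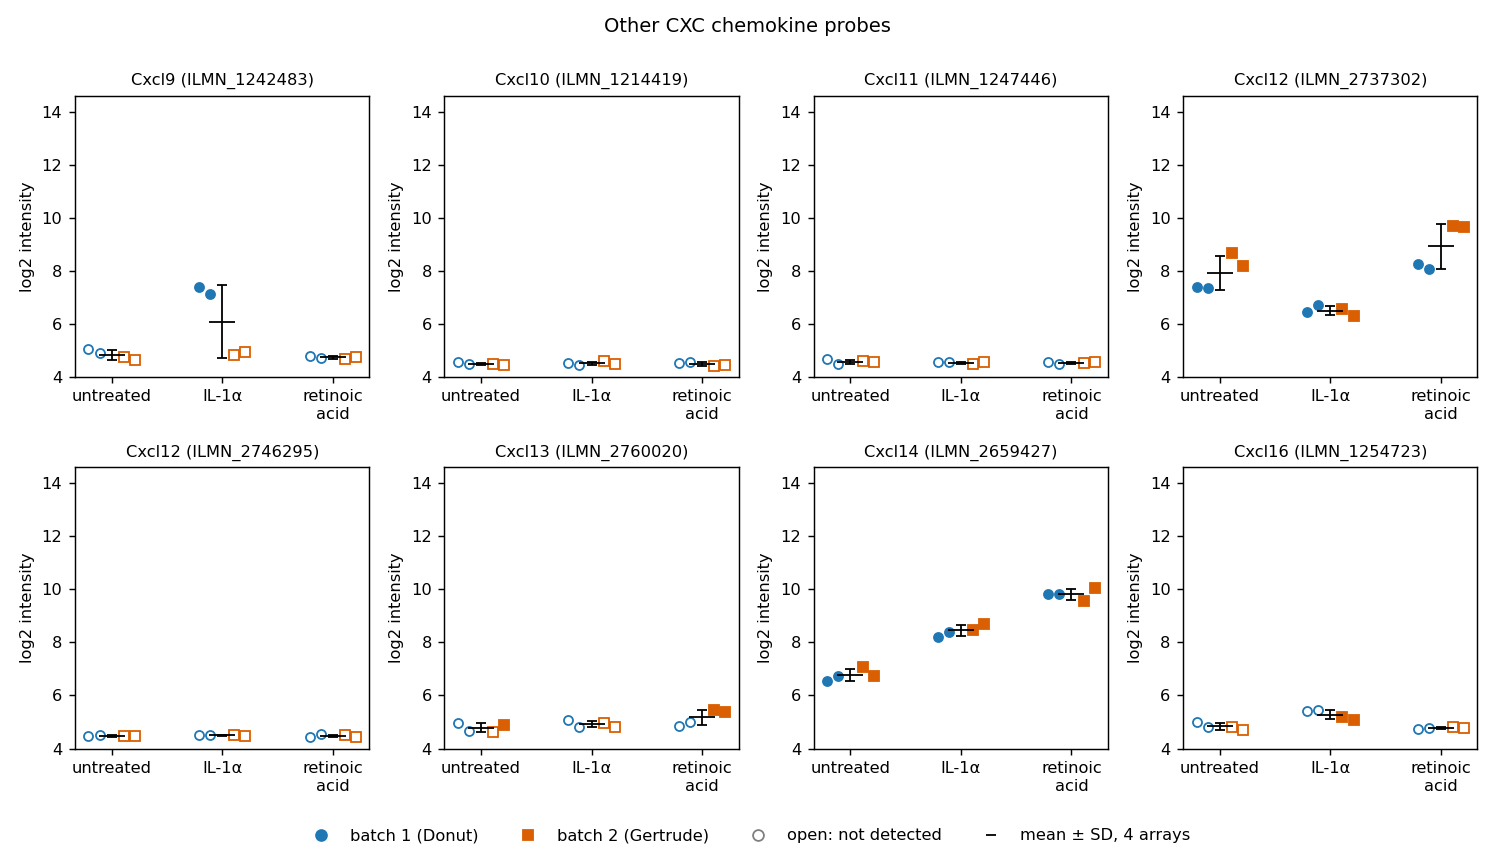
Log2 intensity of the 8 other CXC chemokine probes, by treatment and batch, with the mean ± SD of 4 arrays. Filled symbols are detected and open ones not detected. The second Cxcl9 probe is bright on the 2 IL-1α arrays of batch 1, Cxcl10, Cxcl11 and the third Cxcl12 probe lie near background throughout, and the second probes of Cxcl12 and Cxcl14 were kept and tested.

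Cxcl12 moved in opposite directions with the treatments, down with IL-1α and up with RA. Its brightest probe (ILMN_2658910) read 10.08 and 10.28 untreated (batch 1) and 10.60 and 10.64 (batch 2). The IL-1α arrays read 9.40 and 9.37 (batch 1) and 8.89 and 8.86 (batch 2), and the RA arrays 11.72 and 11.70 (batch 1) and 12.83 and 12.66 (batch 2). None of the 3 ranges overlapped, with IL-1α lowest and RA highest. IL-1α lowered it by a difference of -1.27 (SE 0.24, 0.415 of untreated; adjusted p = 0.00183, limma; exact permutation p = 0.0286). RA raised it by 1.83 (SE 0.24, 3.55-fold; adjusted p = 6.52e-05, limma; exact permutation p = 0.0286), and RA stood 3.10 above IL-1α (SE 0.24; adjusted p = 5.69e-07, limma).

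Both responses of Cxcl12 ran the same way in each batch. The IL-1α difference was -0.80 in batch 1 and -1.74 in batch 2, a gap of -0.94 (SE 0.20; adjusted p = 0.0146, limma). That gap missed the threshold without untreated batch 1 replicate 1, IL-1α batch 1 replicate 1, IL-1α batch 1 replicate 2 or IL-1α batch 2 replicate 2, with adjusted p of 0.0625, 0.0714, 0.0652 and 0.0616 (limma). The RA difference was 1.53 in batch 1 and 2.13 in batch 2, and the gap of 0.60 did not pass (adjusted p = 0.142, limma).

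A second Cxcl12 probe (ILMN_2737302) read 7.40, 7.35, 8.67 and 8.18 untreated, 6.45, 6.71, 6.57 and 6.27 with IL-1α and 8.27, 8.07, 9.67 and 9.65 with RA, batch 1 first. Each IL-1α array lay below every untreated one, with a difference of -1.40 (SE 0.27; adjusted p = 0.00187, limma). The RA values overlapped the untreated ones across batches (exact permutation p = 0.143) but not within either batch, and the difference was 1.02 (SE 0.27; adjusted p = 0.00958, limma). The third probe (ILMN_2746295) was detected on no array.

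Marker sums moved beside Cxcl12 for some cell types. The 6 endothelial marker probes summed to 1842 to 2281 untreated, 852 to 1145 with IL-1α and 2031 to 2412 with RA, and 3 of them fell with IL-1α, among them Pecam1 (-1.23), an adhesion protein of endothelium. The 8 fibroblast and marrow stroma probes summed to 26376 to 31383 untreated, 26592 to 29704 with IL-1α and 19491 to 23959 with RA. The endothelial sum was thus lowest with IL-1α, as Cxcl12 was, and the stroma sum was lowest with RA, where Cxcl12 was highest. The stroma sum is set mainly by its brightest probes, Prg4 and Dcn (mean levels 13.60 and 13.34). The median difference of the 7 kept stroma genes was -0.88 with IL-1α and -0.72 with RA. Pdgfra, named after its values were seen, read 8.83 with IL-1α, 9.71 untreated and 10.66 with RA. With RA 5 of the 7 fell, beside 17.1% of all kept probes. The part of these cell types in the Cxcl12 values was not tested.

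Cxcl14 rose with both treatments, and more with RA. The brighter of its probes (ILMN_2760800) read 7.49, 7.73, 7.01 and 7.63 untreated, 9.41, 9.44, 8.97 and 9.03 with IL-1α, and 10.45, 10.59, 10.03 and 10.39 with RA, batch 1 first. The 3 ranges did not overlap. IL-1α raised it by 1.75 (SE 0.12, 3.36-fold; adjusted p = 4.34e-07, limma) and RA by 2.90 (SE 0.12, 7.47-fold; adjusted p = 2.02e-09, limma), each with the exact permutation p of 0.0286. RA arrays were 1.15 above IL-1α arrays (SE 0.12, 2.22-fold; adjusted p = 7.56e-06, limma).

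The other Cxcl14 probe (ILMN_2659427) read 6.53, 6.75, 7.07 and 6.74 untreated, 8.22, 8.40, 8.48 and 8.71 with IL-1α, and 9.82, 9.82, 9.55 and 10.04 with RA. It had the same order without overlap, at 1.68 for IL-1α, 3.03 for RA and 1.36 for RA over IL-1α. The batches gave close values, 1.82 and 1.68 for IL-1α and 2.91 and 2.89 for RA on the brighter probe. The gaps between batches were -0.14 (adjusted p = 0.818) and -0.02 (adjusted p = 0.986) in limma.

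Cxcl16, the membrane-bound ligand, rose with IL-1α over both batches. Its kept probe (ILMN_2687586) gave 8.33 and 8.48 untreated and 9.77 and 9.67 with IL-1α among the batch 1 arrays. Among the batch 2 arrays it gave 7.30 and 6.63 untreated and 7.64 and 7.61 with IL-1α. The treated pair was above the untreated pair in each batch, yet the ranges overlapped across batches (exact permutation p = 0.229) because batch 2 was lower throughout. The difference was 0.99 (SE 0.16, 1.98-fold; adjusted p = 0.000602, limma), at 1.31 in batch 1 and 0.66 in batch 2. In a fit to the batch 2 arrays alone it missed the threshold (adjusted p = 0.0556, limma) and was 0.33 without untreated batch 2 replicate 2. The gap of -0.65 did not pass (adjusted p = 0.163, limma) but did without untreated batch 2 replicate 2 (-0.99, adjusted p = 0.0111, limma).

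With RA the Cxcl16 probe read 8.58, 8.60, 7.05 and 7.03, among the untreated values. The difference was 0.13 (95% interval -0.22 to 0.48; adjusted p = 0.571, limma), and against IL-1α it was -0.86 (SE 0.16; adjusted p = 0.00115, limma). A dimmer probe (ILMN_1254723) was detected only on the IL-1α arrays of batch 2 (5.18 and 5.07) and was not tested. On the IL-1α arrays of batch 1 it read 5.42 and 5.43, under their higher detection limits (lowest detected signal 5.48 and 5.45). All IL-1α arrays lay above the untreated (4.70 to 4.99) and RA (4.74 to 4.82) arrays, though near background. Cxcl16 was also lower in batch 2 than in batch 1 over all treatments, by a difference of -1.70 (adjusted p = 8.36e-09, limma). Of all kept probes, 76.3% differed between batches. The macrophage sums given above were lower in batch 2 as well, though 1 listed macrophage gene, Emr1, was detected in batch 2 only. Emr1 was named after its values were seen, and no relation of Cxcl16 to these markers was tested.

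Counted by gene through the brightest kept probe, IL-1α against untreated gave 5 genes up (Cxcl1, Cxcl2, Cxcl9, Cxcl14 and Cxcl16), where 15.2% of all kept probes were up, and 1 down (Cxcl12), where 14.1% were down. RA against untreated gave 2 up (Cxcl12 and Cxcl14) beside 18.2% of all probes, and 0 down beside 17.1%. RA against IL-1α gave 2 up (Cxcl12 and Cxcl14) beside 15.2%, and 4 down beside 15.8%. The median log2 difference of the 6 genes was 2.07, 0.54 and -1.73 in these comparisons (1.96 and -1.48 for the first and last with Cxcl9 at its bound), and over all kept probes 0.02, 0.02 and -0.03. Of all probes that passed, 51.6% were up with RA and 49.0% were up in RA against IL-1α, which became 65.6% and 65.6% when arrays were scaled to one median instead of quantile-normalized. That scaling kept the direction of all 6 genes in each comparison. The comparisons share arrays, and Cxcl9 entered only through its IL-1α arrays, so the counts describe the 6 genes and support nothing further.

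**Figure D3:**
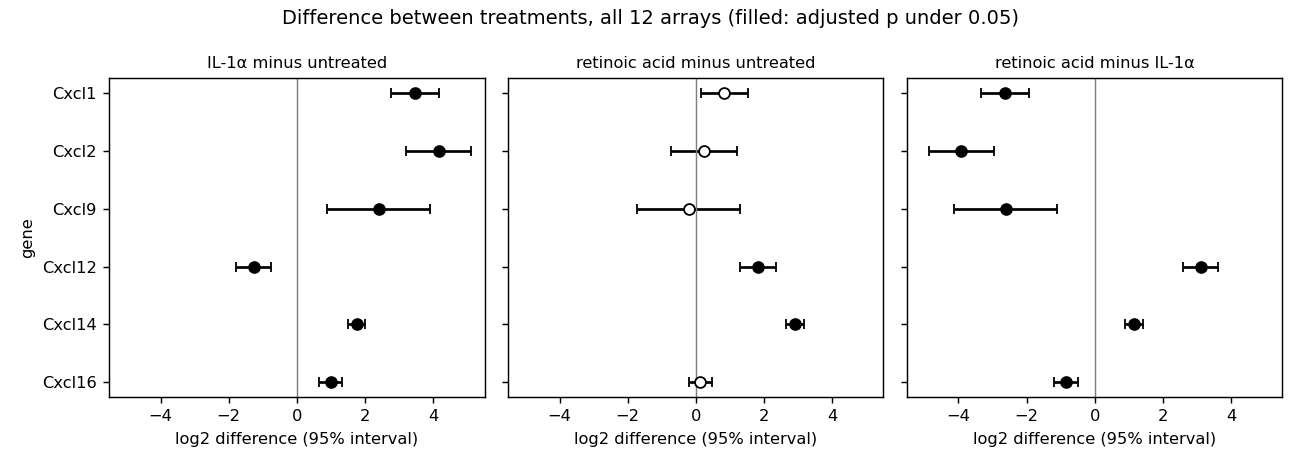
Log2 difference between treatments for the 6 genes with a kept probe, with 95% intervals from the fit to all 12 arrays, in 3 panels. Filled points have an adjusted p under 0.05. Cxcl12 lies left of 0 with IL-1α and right of 0 with RA, Cxcl14 lies right of 0 in all 3 panels, and Cxcl1, Cxcl2, Cxcl9 and Cxcl16 are open with RA.

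The treatment effects were also compared between batches. The IL-1α effect differed between batches for 3 of the 6 genes (Cxcl2, Cxcl9 and Cxcl12), where 4.82% of all kept probes did, and the RA effect for 1 (Cxcl1), where 2.86% did. The count of 3 became 1 without IL-1α batch 1 replicate 1, IL-1α batch 1 replicate 2 or IL-1α batch 2 replicate 2, since Cxcl9 then left the filter and the Cxcl12 gap missed the threshold. Cxcl2 and Cxcl9 differed in opposite directions, with the larger IL-1α effect in batch 2 for Cxcl2 and in batch 1 for Cxcl9. Averaged over treatments, 5 of the 6 genes differed between batches, where 76.3% of all kept probes did, a like share. Cxcl2 was higher in batch 2 by 1.44, and Cxcl1 (-1.14), Cxcl9 (-1.56), Cxcl14 (-0.34) and Cxcl16 (-1.70) were lower, each with an adjusted p under 0.05 in limma. The Cxcl9 value rests on its IL-1α arrays, since the probe was not detected on the others. The other Cxcl14 probe was 0.17 higher in batch 2 and did not pass (adjusted p = 0.174, limma). Cxcl12 did not pass on its brightest probe (0.32, adjusted p = 0.120, limma). Its second probe was 0.79 higher in batch 2 and passed (adjusted p = 0.00234, limma).

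**Figure D4:**
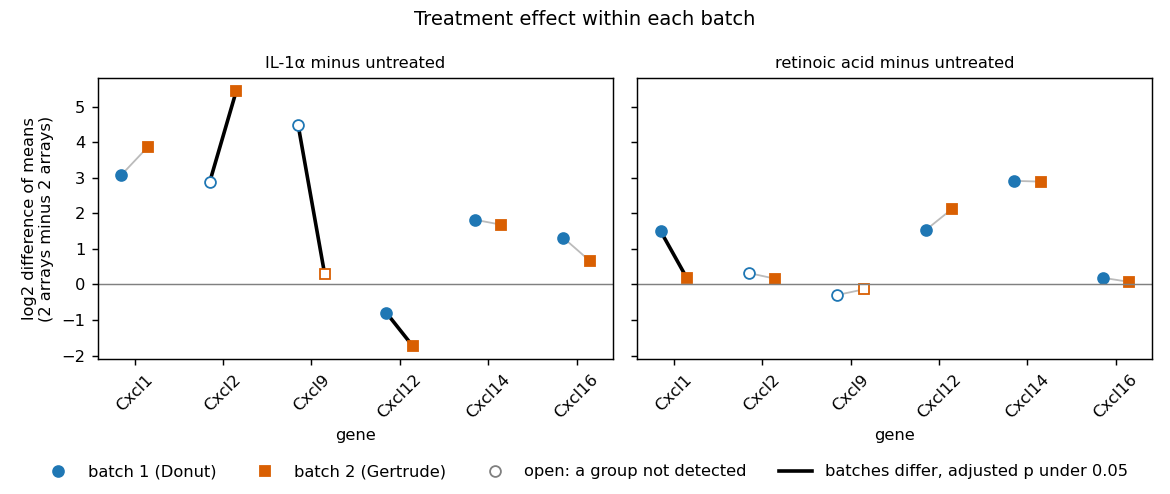
Log2 difference from untreated within batch 1 (circles) and within batch 2 (squares) for 6 genes, with IL-1α on the left and RA on the right, each from 2 arrays minus 2 arrays. Thick lines mark gaps between batches with an adjusted p under 0.05. Open symbols rest on a group below detection and have no exact size. With IL-1α, Cxcl2 is at least 2.17 in batch 1 and 5.43 in batch 2, Cxcl9 is at least 4.21 in batch 1 and at least 0.13 in batch 2, and Cxcl14 is nearly level in both panels.

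Other CXC ligands, receptors and processing enzymes were read from lists. For every list count given from here on, the shares over all kept probes were those above, 15.2% up and 14.1% down with IL-1α and 18.2% up and 17.1% down with RA. Of 7 other ligands, 4 were on the array and 3 were kept, with 0 up and 1 down with IL-1α and 2 up and 0 down with RA (medians 0.03 and 1.67). Ppbp, a platelet ligand of Cxcr2, rose by 2.20 with RA (SE 0.23; adjusted p = 7.74e-06, limma). Cxcl15, a neutrophil attractant best known from lung, was detected on the 4 RA arrays only, at least 2.08-fold above untreated. It passed the filter only through those RA arrays, so its place among the genes up with RA was built into its selection. Platelet factor 4, listed as Cxcl4, fell by 0.81 with IL-1α (SE 0.26; adjusted p = 0.0342, limma), and Cxcl3 was not kept.

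Receptors were scarcely measured. Of 14 listed, 7 were on the array and 2 were kept, with medians of 0.03 with IL-1α and 0.31 with RA. The Cxcl12-binding receptor Cxcr7 rose by 0.74 with RA (SE 0.20; adjusted p = 0.0106, limma) and read -0.08 with IL-1α (adjusted p = 0.787). The receptor of Cxcl1 and Cxcl2, listed as Il8rb, was dim and did not pass with IL-1α (0.14) or RA (-0.12), and Il8ra, Cxcr3, Blr1, Cxcr6 and Darc were not kept. Of 3 processing enzymes, Adam17, which sheds membrane proteins, and Dpp4, which trims chemokines, were kept, and neither passed with IL-1α (0.25 and 0.26) or RA (-0.13 and 0.18).

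Genes of the NF-κB and interferon pathways were read beside the ligands because these pathways are known to induce Cxcl1, Cxcl2 and Cxcl9. The interferon list also holds interferons and their receptor chains, so its counts are not of target genes alone. Of 13 NF-κB genes, 11 were kept, and 10 rose and 0 fell with IL-1α (median 1.18). They included the adhesion molecule Icam1 (2.92), the NF-κB inhibitor Nfkbie (1.84), its relative Nfkbiz (1.72) and the subunit Relb (1.45), with adjusted p from 7.03e-07 to 1.23e-05 in limma. With RA 3 rose and 0 fell (median 0.04), namely Tnfaip3 (1.40), which restrains NF-κB, Bcl3 (0.80) and Nfkbie (0.57). The IL-1α effect differed between batches for 1 of the 11, Nfkbia, the main inhibitor, chosen here after its values were seen. Its probe was detected on no array of batch 1, so only the batch 2 difference of 1.46 is a measured one.

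Of 20 interferon genes, 18 were on the array and 13 were kept, with 3 up, 1 down and 9 not passing with IL-1α (median 0.46), counts near the shares over all kept probes. Those up were the interferon-gamma receptor chains Ifngr1 (0.67) and Ifngr2 (0.57) and the signal transducer Stat2 (0.57), and Ifit2 fell by 0.69. With RA 4 rose (median 0.38), namely Ifngr1 (2.17), Irf1 (1.11), the immunoproteasome subunit Psmb8 (1.00) and Ifngr2 (0.68), and Ifit2 fell by 0.36 (named after its value was seen). The IL-1α medians were 0.84 in batch 1 and -0.05 in batch 2, and the effect differed between batches for 3 genes named here after their values were seen, the GTPase Igtp (1.34 and -0.09), the transcription factor Irf1 (1.02 and -0.05) and Ifit3 (0.32 and -1.01). In batch 1 Ifit3 was detected on 0 untreated arrays and 1 IL-1α array, so its batch 1 difference and its gap are not exact. The interferons Ifng and Ifnb1 were not kept. Cxcl9 had its larger IL-1α effect in the same batch, and no relation between them was tested.

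**Figure D5:**
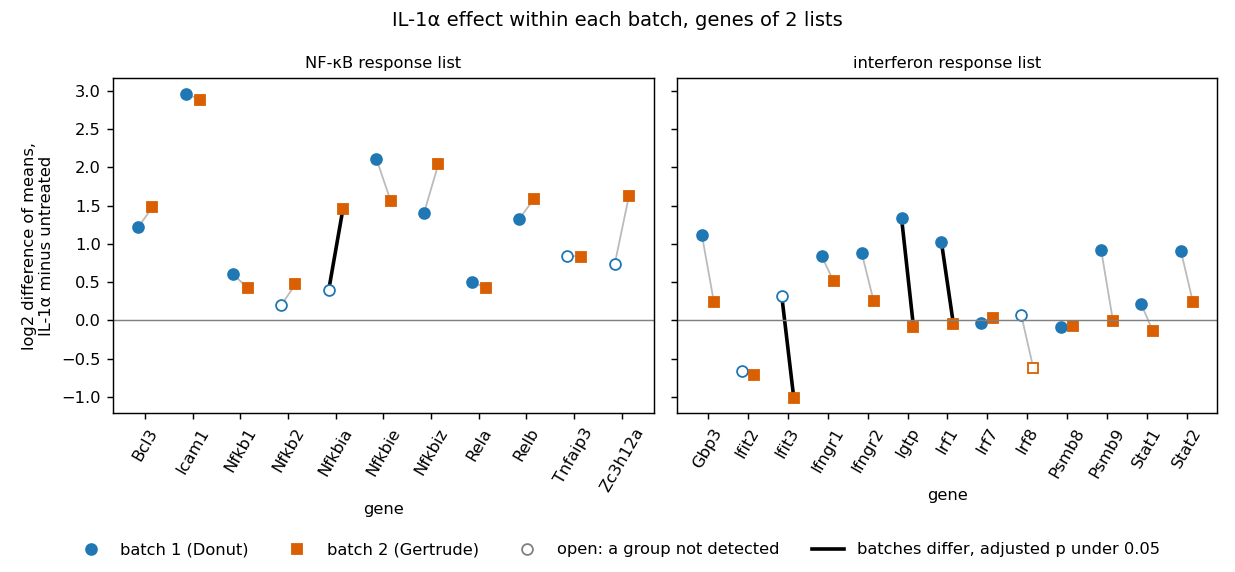
Log2 difference of IL-1α from untreated within batch 1 (circles) and batch 2 (squares) for the kept genes of the NF-κB list (left) and the interferon list (right), each from 2 arrays minus 2 arrays. Thick lines mark gaps between batches with an adjusted p under 0.05, and open symbols a group below detection. The NF-κB genes lie above 0 in both batches, and Igtp and Irf1 stand above 1 in batch 1 and near 0 in batch 2.

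Genes for proteins that destabilise chemokine mRNA were read next. Of 6 listed, 4 were on the array and 3 were kept, with 2 up and 0 down with IL-1α (median 0.97) and 1 up and 0 down with RA (median 0.28). The endonuclease Zc3h12a rose by 1.18 (SE 0.20; adjusted p = 0.000758, limma) and Zfp36, which binds AU-rich elements, by 0.97 (SE 0.19; adjusted p = 0.00211, limma) with IL-1α. The Zc3h12a probe was detected on 3 IL-1α arrays, 1 untreated array and 0 RA arrays. It thus passed the filter mainly through its IL-1α arrays, and the size of its rise is not exact. Zfp36l1 rose by 0.45 with RA (SE 0.14; adjusted p = 0.0219, limma). Zc3h12a also belongs to the NF-κB list, where it is among the 10 genes that rose with IL-1α, and the same limit holds there.

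The labelled tissue was checked against markers. Of 10 chondrocyte probes, 6 to 9 were detected on each array, and their summed level was 62451 to 73992 untreated, 35283 to 47086 with IL-1α and 10064 to 15334 with RA. Of 8 kept, 6 fell and 0 rose with IL-1α (median -1.01), and 8 fell and 0 rose with RA (median -2.86), among them aggrecan (Acan, -4.22 with RA) and matrilin 1 (Matn1, -5.00 with RA). The explants also held blood cell transcripts, such as the neutrophil protein gene S100a8 (mean level 12.66). Of 7 kept neutrophil genes 1 (Cd177, 0.91) rose with IL-1α and 4 fell with RA, with medians of 0.34 and -0.73. The RA effect differed between batches for 5 of the 7, with medians of -1.58 in batch 1 and -0.07 in batch 2, as for Mpo (-3.70 and -0.50) and Ltf (-1.58 and -0.07). Of 7 kept macrophage genes 2 rose (Cd14 and Cd68) and 4 fell with IL-1α (median -0.78), and 6 rose and 0 fell with RA (median 1.20).

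Of the 2 kept lymphocyte genes 0 passed with IL-1α (median 0.37), and with RA Cd79b rose (1.19) and Nkg7 fell (-0.93), with a median of 0.13. The 6 kept endothelial genes had medians of -0.65 with IL-1α and 0.03 with RA, where 1 rose (Emcn, 0.39). The 7 kept fibroblast and marrow stroma genes gave 1 up (Pdpn, 0.70) and 4 down with IL-1α (median -0.88). With RA 1 rose (Pdgfra, 0.95, named after its value was seen) and 5 fell (median -0.72). For the check lists, 2 of 2 kept IL-1 genes rose with IL-1α (median 2.56), and 4 of 4 RA genes rose with RA (median 3.43). Nos2 and Cyp26a1 passed the filter only through the arrays of that treatment, so their rise was built into their selection. The other listed IL-1 genes, Ptgs2 and Il6, were not kept. The part of these shifts in cell makeup in the chemokine values was not tested.

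The genes whose pattern was most like each ligand were found by Pearson's r over the 12 arrays after the mean of each batch was taken out. Because the arrays share 3 treatments, genes that answer the same treatment correlate, and r is given as a description only. Cxcl1 was nearest to LOC100044702 (0.98), Accn3 (0.98) and Upp1 (0.98), and Cxcl2 to Slc7a2, an arginine transporter (0.98), Nme7 (0.98) and complement factor B (Cfb, 0.98). Cxcl9 was nearest to the eosinophil-associated ribonucleases Ear2 (0.99) and Ear6 (0.98) and to the ubiquitin-like gene Ubd (0.98). Cxcl12 was nearest to Gpnmb (0.99), Dact1 (0.99) and Thsd4 (0.99), Cxcl14 to 2610204M08Rik (0.99), LOC100048332 (0.99) and Trp53inp2 (0.97), and Cxcl16 to Crcp (1.00), Psmd5 (0.99) and Zfand2a (0.99). Among the ligands themselves r ran from 0.97 for Cxcl1 with Cxcl2 to -0.79 for Cxcl2 with Cxcl12.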

How the data were processed

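Per the labels, RNA from femoral head explants was hybridised as biotinylated cRNA to 12 Illumina bead arrays. The authors deposited 1 table of probe intensities on a linear scale, neither background-subtracted nor normalized, and a detection score per probe and array. The deposited detection scores rise with intensity, so 1 minus the score served as detection p. Limma is named in the submitters' processing notes with no version, and the bead summary software is not given in the sources used here.

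The work was done with limma 3.58.1 in R 4.3.3. Normexp background was taken from the detection p with an offset of 16, and arrays were quantile-normalized and put on the log2 scale (neqc). A probe was kept if its detection p fell under 0.05 on 4 arrays or more. Kept probes were tested by lmFit and eBayes over all 12 arrays. Terms were treatment and a factor for batch and replicate, which the study's methods name without its levels and which was taken here as the 4 combinations of batch with replicate number. Benjamini-Hochberg adjustment ran over the 18200 kept probes. Effects were compared between batches by the interaction of treatment and batch, without the replicate factor. The batch comparison used treatment and batch. Genes were counted by their kept probe of highest mean. Where a group was not detected, folds were bounded by the lowest detected signal. The scripts were tested on simulated data.

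The members and gene lists were chosen with earlier results of these data known. Named list genes were those with the lowest adjusted p, at most 4 per list and treatment, plus Nos2, Cyp26a1 and kept receptors, with exceptions marked in the text. The lists covered other ligands, receptors, processing enzymes, NF-κB, interferon and mRNA decay genes, 6 sets of cell markers and 2 treatment checks.

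The labels do not say which mice gave each array, and the labels speak of triplicate treatment while each treatment has 2 arrays per batch, and the study's methods give 3 mice per treatment, fewer than its 4 arrays. Arrays may thus share animals, and p-values measure the spread between these arrays. Same-numbered replicates of different treatments deviated with correlations of -0.11 to 0.39, highest for IL-1α with RA in batch 2. These values do not settle whether the numbers pair the arrays. The number of arrays limits the precision. Promoter sequences and gene positions came from RefSeq (GRCm38.p6). Background correction, scaling, filter, design and each array in turn were varied.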

Additional observations from a re-analysis of the deposited data

Results flagged for a closer look

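4 results differed between the batches, which are also the mouse lines, by the test of the difference itself in limma. The rise of Cxcl2 with IL-1α was larger in batch 2 by 2.55 (adjusted p = 3.85e-05). The rise of Cxcl9 with IL-1α was smaller there, with a fitted difference of -4.19 (adjusted p = 3.80e-08) whose size is not exact, since the probe was below detection on all untreated arrays and was kept through its IL-1α arrays. The fall of Cxcl12 with IL-1α was deeper in batch 2, with a difference of -0.94 (adjusted p = 0.0146). The difference of Cxcl1 between RA and untreated arrays was smaller in batch 2, at -1.33 (adjusted p = 0.00634). Line and batch cannot be told apart here.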

How the results depend on the processing

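Of 655 values recomputed for single genes, 620 kept their side of the threshold, 16 lost the call and 19 gained it. In 0 of them did the direction change where either value passed. Changes of direction in which neither value passed were counted among the 620. The Cxcl2 difference with RA, for example, ran from -0.07 to 0.48 over the settings. The count of genes whose IL-1α effect differed between batches (3) was 1 with detection asked on all 12 arrays, which drops Cxcl2 and Cxcl9, and 1 to 4 when each array was left out in turn (1 without IL-1α batch 1 replicate 1, IL-1α batch 1 replicate 2 or IL-1α batch 2 replicate 2). A lone array left in a treatment and batch was taken to vary like the others. The count for RA (1) was 2 with an offset of 50 and 2 with no filter, where Cxcl12 was added. The count that differed between batches over all treatments (5) was 3 with detection on all 12 arrays. Without the replicate block, 6 genes passed with IL-1α, 3 with RA and 6 between them, Cxcl1 being the gene gained with RA (adjusted p = 0.0371, limma). The Cxcl9 rise with IL-1α missed the threshold with no filter (adjusted p = 0.166), with neither batch nor replicate (0.179) and in batch 2 alone (0.238). The Cxcl16 rise missed it with neither batch nor replicate (0.516) and in batch 2 alone (0.0556). The Cxcl1 difference with RA passed with scaling to one median (1.09, adjusted p = 0.0160) and with normalization within batches (0.0325). That scaling moved the median RA difference of all kept probes from 0.02 to 0.14, so Cxcl1 stood 0.96 above it. It also changed the calls over all probes with IL-1α from 2767 up and 2567 down to 1538 and 1566, with RA from 3116 down to 1796 and between them from 2883 down to 1411. The cause of these changes was not tested. Signals near background limit Cxcl2, Cxcl9 and Cxcl13, and the top of the scale limits Cxcl1.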
